A study of Mus musculus with 9 samples.

Results

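The genes described here are 10 genes of the endoplasmic reticulum (ER) chaperone system and the unfolded protein response, taken by symbol from a list of Sdf2l1, Hspa5, Hsp90b1, Dnajb9, Dnajb11, Manf, Creld2, Pdia4, Ddit3 and Xbp1. All 10 were found among the 24532 genes measured, and all 10 were among the 14731 genes with enough reads to be tested. They were followed in whole liver of wild-type C57BL/6 mice. Every animal had received escalating doses of thioacetamide (TAA), a liver toxin that causes fibrosis, injected into the peritoneum for 10 weeks. The control group, called TAA, had saline alongside (replicates 12, 13 and 14). The other groups had recombinant human cytoglobin (rhCYGB), a haem protein of the globin family, given into the tail vein at 2 mg/kg through the final 2 weeks (replicates 17, 18 and 19) or the final 5 weeks (replicates 23, 27 and 28). Each group held 3 libraries, and livers were taken 2 days after the final rhCYGB dose. Liver without TAA was not analysed here, so no level below can be set against healthy liver. The labels do not state that each replicate number is a separate mouse, and p-values therefore cover only how far these samples differ, which may be technical.

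Proteins that enter the secretory pathway fold inside the ER, where chaperones hold unfinished chains and enzymes form their disulfide bonds. When unfolded chains build up, the membrane sensors IRE1, PERK and ATF6 start the unfolded protein response. IRE1 splices the messenger RNA of Xbp1 into a form that encodes an active transcription factor, cleaved ATF6 enters the nucleus, and PERK slows translation and favours that of ATF4. Together these factors raise the synthesis of chaperones, of degradation machinery and, under lasting stress, of Ddit3. Hepatocytes secrete most plasma proteins and carry a dense ER, so this system is prominent in liver.

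The promoters of several of these genes are shown because the genes carry a sequence through which ATF6 and XBP1 are known to act. The ER stress response element (ERSE) was searched as CCAAT and CCACG with 9 bases of any kind between them and ERSE-II as ATTGG and CCACG with 1 base between them, both on either strand, in RefSeq windows of 300 bases (250 before and 50 after the start, build GRCm38.p6). A window was at hand for 9 of the 10 genes. ERSE was found in 3 of the 9, those of Hspa5, Hsp90b1 and Creld2, and in 39 of all 32851 windows (0.119%). ERSE-II was found in Dnajb11 and in 12 of all windows (0.0365%). Each sequence below reads 5′ to 3′ along the gene, and capitals mark the ERSE or ERSE-II match.
Hspa5: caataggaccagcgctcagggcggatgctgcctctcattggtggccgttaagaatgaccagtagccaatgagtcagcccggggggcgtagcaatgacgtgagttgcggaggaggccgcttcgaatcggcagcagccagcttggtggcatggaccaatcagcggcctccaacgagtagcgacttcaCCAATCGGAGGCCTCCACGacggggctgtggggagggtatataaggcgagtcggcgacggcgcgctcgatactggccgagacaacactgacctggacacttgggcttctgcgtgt
Hsp90b1: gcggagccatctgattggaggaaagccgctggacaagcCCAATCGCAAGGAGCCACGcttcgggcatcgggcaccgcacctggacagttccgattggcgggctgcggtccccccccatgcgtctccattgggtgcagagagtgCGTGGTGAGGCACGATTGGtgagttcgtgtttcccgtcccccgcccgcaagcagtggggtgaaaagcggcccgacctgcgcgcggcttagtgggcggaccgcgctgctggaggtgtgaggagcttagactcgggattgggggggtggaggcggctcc
Creld2: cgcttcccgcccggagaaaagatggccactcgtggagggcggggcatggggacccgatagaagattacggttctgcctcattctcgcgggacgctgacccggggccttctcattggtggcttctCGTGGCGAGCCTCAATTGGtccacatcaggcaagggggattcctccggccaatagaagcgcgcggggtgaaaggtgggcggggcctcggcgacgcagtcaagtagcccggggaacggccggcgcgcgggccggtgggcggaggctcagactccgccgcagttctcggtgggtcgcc
Dnajb11: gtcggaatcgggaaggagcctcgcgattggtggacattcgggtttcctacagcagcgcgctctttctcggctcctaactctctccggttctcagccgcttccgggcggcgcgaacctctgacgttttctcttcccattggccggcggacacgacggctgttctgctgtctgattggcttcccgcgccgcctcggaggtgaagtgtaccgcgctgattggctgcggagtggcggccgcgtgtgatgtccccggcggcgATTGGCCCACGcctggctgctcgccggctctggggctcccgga

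The Hspa5 window is chr2:34771840-34772139 on the plus strand, with its ERSE 65 to 47 bases before the start. The Hsp90b1 window is chr10:86705395-86705694 on the minus strand. It holds an ERSE 212 to 194 bases before the start and another, on the opposite strand, 107 to 89 bases before it. Creld2 (chr15:88819396-88819695, plus strand) has its ERSE on the opposite strand, 126 to 108 bases before the start. In Dnajb11 (chr16:22857595-22857894, plus strand) the ERSE-II lies 7 to 17 bases after the start. The shorter element TGACGTG, the core of the unfolded protein response element, was searched on both strands as well and overlaps neither of the other motifs in these windows. It occurred among the 9 windows in Hspa5 alone, 157 to 151 bases before the start, and in 2.01% of all windows. The windows of Sdf2l1, Dnajb9, Pdia4, Ddit3 and Xbp1 held none of these letters in this order. Among related genes with a window at hand, ERSE stood in 5 of 20 other ER chaperones and folding enzymes (Calr, Canx, Pdia6, Dnajc3 and Ero1b). It stood in 2 of 14 genes of ER-associated degradation (Syvn1 and Derl3), and ERSE-II stood in Herpud1. A gene can have more than 1 window, so these counts are of genes and the shares above are of windows. A match describes letters and does not show that a factor binds there.

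In the 5-week livers, Hspa5, Sdf2l1, Dnajb11, Manf and Creld2 lay below every TAA library, by 1.12- to 1.63-fold in the fitted means. In the 2-week livers, Sdf2l1, Dnajb11 and Manf lay above every TAA library on the TMM scale, by 1.16- to 1.47-fold, although scaling by library totals left that direction to Manf alone among them. None of these differences passed the test used here, the quasi-likelihood F test of edgeR, adjusted by Benjamini-Hochberg over all 14731 genes, in which an adjusted p under 0.05 was a call. Levels are CPM (counts scaled to a common library size) after TMM scaling, a correction for differences in library composition, and changes are log2 fold changes with their standard error (SE) from that fit.

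By FPKM, which corrects for transcript length, the genes differed widely in level in TAA livers. Hspa5 was highest at 433 ± 56.4 FPKM (SD, n = 3), followed by Hsp90b1 at 299 ± 41.2. Xbp1 at 107 ± 6.37 and Pdia4 at 102 ± 13.8 came next and overlapped each other. Manf at 66.2 ± 5.30 and Dnajb11 at 65.6 ± 4.24 did not differ beyond their spread. Creld2 stood at 42.8 ± 8.05, Sdf2l1 at 34.3 ± 4.61, Ddit3 at 30.7 ± 8.44 and Dnajb9 at 26.5 ± 9.07 FPKM, and neighbours in that lower part of the order overlapped. The chaperone heat shock proteins of the ER lumen thus stood at the top of the order, and the stress-induced factor Ddit3 with the co-chaperone Dnajb9 at the bottom.

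**Figure D1:**
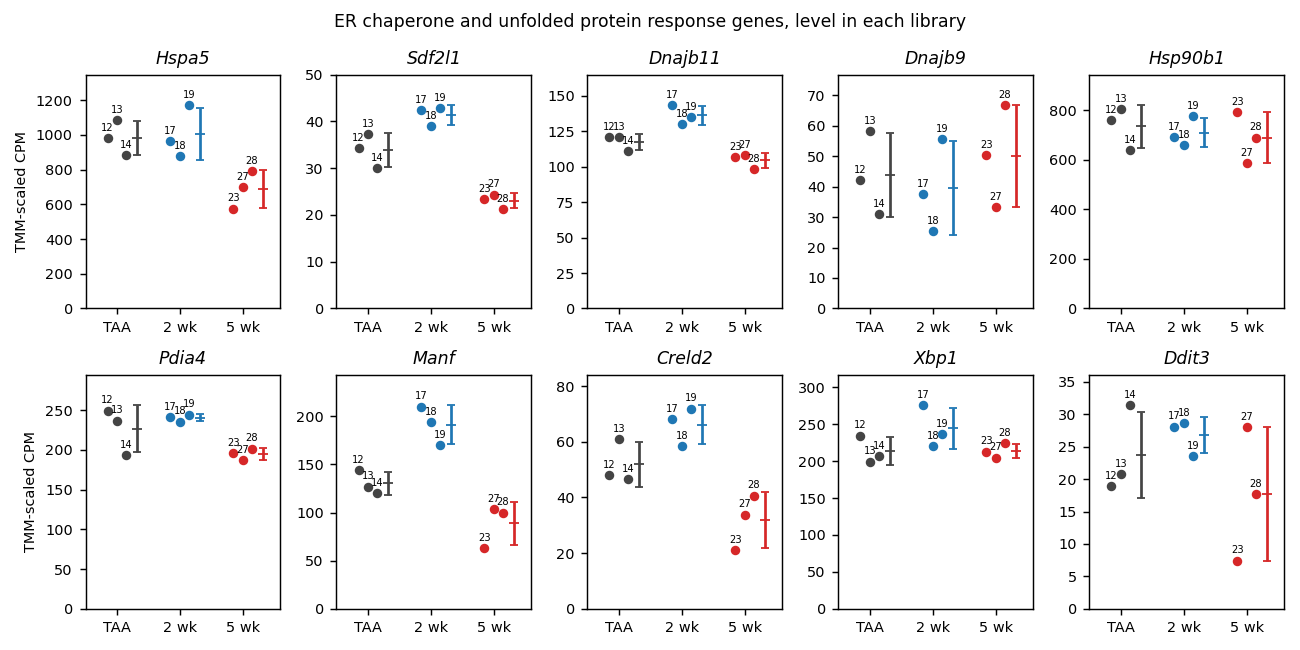
TMM-scaled CPM of each of the 10 genes in each of the 9 libraries, with points for libraries, labelled by replicate, and a bar with whiskers for the mean ± SD of each group (n = 3). Sdf2l1, Hspa5, Dnajb11, Manf and Creld2 sit lower in all 3 libraries of the 5-week group than in any TAA library, while Hsp90b1, Dnajb9, Xbp1 and Ddit3 overlap between groups.

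Hspa5 (gene ID 14828, mm10 chr2:34772090-34776529) encodes BiP, the ER member of the HSP70 family and the chaperone that binds the stress sensors when folding is in balance. It measured 982, 1083 and 883 CPM in TAA (replicates 12, 13 and 14), 962, 879 and 1172 CPM in the 2-week group (17, 18 and 19) and 575, 697 and 790 CPM in the 5-week group (23, 27 and 28). Its 2-week libraries overlapped with TAA, and its 5-week libraries, led by the low replicate 23, were all below both other groups. The log2 change was 0.03 ± 0.16 at 2 weeks (edgeR adjusted p = 0.920), -0.52 ± 0.16 at 5 weeks (adjusted p = 0.130) and -0.55 ± 0.16 between 5 and 2 weeks (adjusted p = 0.169). Of its 2 transcripts, 1 took 80.1% to 86.1% of the Hspa5 reads in each of the 9 libraries.

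Sdf2l1 (gene ID 64136, mm10 chr16:17130138-17132383) encodes a luminal protein that works with BiP and ERdj3, the product of Dnajb11, to keep unfolded chains from aggregating. Sdf2l1 measured 34.3, 37.3 and 29.97 CPM in TAA, 42.3, 38.9 and 42.8 CPM at 2 weeks and 23.5, 24.3 and 21.2 CPM at 5 weeks, in the same order of replicates. The groups did not overlap, with the 2-week libraries highest and the 5-week libraries lowest. Its log2 change against TAA was 0.29 ± 0.12 at 2 weeks (edgeR adjusted p = 0.186) and -0.56 ± 0.12 at 5 weeks (adjusted p = 0.0578), and between 5 and 2 weeks -0.85 ± 0.12 (adjusted p = 0.0645). Sdf2l1 therefore came closest of the 10 genes to the threshold in the 5-week comparison. The 2-week value turned to -0.04 under scaling by library totals, and was 0.00054 once a trend over transcript length was taken out. The same step left -0.54 of the value between 5 and 2 weeks.

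Dnajb11 (gene ID 67838, mm10 chr16:22857845-22879634), the HSP40 partner that hands clients to BiP, showed the same order within a narrower range. It measured 121, 121 and 111 CPM in TAA, 144, 130 and 135 CPM at 2 weeks and 107, 108 and 98.5 CPM at 5 weeks. Here too the groups were apart from each other. The log2 change was 0.21 ± 0.10 at 2 weeks (edgeR adjusted p = 0.249), turning to -0.12 under scaling by library totals, and -0.17 ± 0.10 at 5 weeks (adjusted p = 0.411). On the log2(FPKM + 1) scale the 5-week value was -0.39 (limma adjusted p = 0.0362). From 2 to 5 weeks the TMM-scaled change was -0.38 ± 0.10 (adjusted p = 0.159).

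Dnajb9 (gene ID 27362, mm10 chr12:44205897-44210068) encodes ERdj4, a co-chaperone that holds BiP on IRE1 and is a direct target of spliced XBP1. It measured 42.2, 58.2 and 31.0 CPM in TAA, 37.5, 25.3 and 55.7 CPM at 2 weeks and 50.2, 33.2 and 66.7 CPM at 5 weeks. Each group held a high and a low library, and the groups overlapped throughout. Its log2 changes were -0.15 ± 0.34 and 0.19 ± 0.34 against TAA, with edgeR adjusted p = 0.808 and 0.809, and 0.34 ± 0.34 between 5 and 2 weeks (adjusted p = 0.542). With 1 library left out the 2-week value of Dnajb9 ran from -0.48 (without replicate 19) to 0.09 (without 18 or 13), and the 5-week value from -0.07 (without 28) to 0.44 (without 13). The value between 5 and 2 weeks turned to -0.16 without replicates 17, 18 and 23, which leaves replicate 19 alone at 2 weeks.

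Hsp90b1 (gene ID 22027, mm10 chr10:86690841-86705444) encodes GRP94, the HSP90 of the ER, which folds integrins and Toll-like receptors. It measured 762, 805 and 640 CPM in TAA, 692, 661 and 776 CPM at 2 weeks and 793, 587 and 690 CPM at 5 weeks. The groups overlapped. The Hsp90b1 promoter carries 2 of the ERSE matches printed above, and a link between motif and change was not tested. The log2 changes of Hsp90b1 were -0.05 ± 0.14 and -0.09 ± 0.14 against TAA (edgeR adjusted p = 0.848 and 0.783), and -0.04 ± 0.14 between 5 and 2 weeks (adjusted p = 0.878).

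Pdia4 (gene ID 12304, mm10 chr6:47796141-47813512) encodes ERp72, a protein disulfide isomerase. It measured 249, 237 and 193 CPM in TAA, 241, 235 and 244 CPM at 2 weeks and 196, 187 and 202 CPM at 5 weeks. The 5-week libraries were all below the 2-week libraries but overlapped with TAA, where replicate 14 was low. Pdia4 log2 changes were 0.09 ± 0.12 (edgeR adjusted p = 0.681) and -0.22 ± 0.12 (adjusted p = 0.355) against TAA, and -0.30 ± 0.12 between 5 and 2 weeks (adjusted p = 0.192). The 5-week value against TAA was -0.43 under scaling by library totals.

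Manf (gene ID 74840, mm10 chr9:106887415-106891938) encodes a small ER protein that is secreted under stress and is known for protecting cells in several tissues. It measured 144, 127 and 121 CPM in TAA, 210, 194 and 170 CPM at 2 weeks and 63.1, 104 and 100 CPM at 5 weeks. The groups did not overlap, with the 2-week libraries highest and replicate 23 of the 5-week group lowest. The log2 change of Manf was 0.55 ± 0.19 at 2 weeks (edgeR adjusted p = 0.120), of which scaling by library totals left 0.22, and -0.55 ± 0.19 at 5 weeks (adjusted p = 0.154), the latter -0.36 without replicates 17, 18 and 23. Manf differed between 5 and 2 weeks by -1.11 ± 0.19 (adjusted p = 0.109), a mean of 88.9 ± 22.4 CPM against 191 ± 19.9 CPM (SD, n = 3 each).

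Creld2 (gene ID 76737, mm10 chr15:88819646-88826681) encodes an ER protein with disulfide isomerase activity that is induced with Manf under ER stress. It measured 48.1, 61.1 and 46.5 CPM in TAA, 68.1, 58.5 and 71.9 CPM at 2 weeks and 21.2, 33.9 and 40.7 CPM at 5 weeks. The 5-week libraries lay below all others, with replicate 23 lowest again, while the 2-week libraries overlapped with TAA. The log2 change of Creld2 was 0.35 ± 0.22 at 2 weeks (edgeR adjusted p = 0.357), but 0.13 with the length trend removed and 0.017 by library totals. It was -0.70 ± 0.22 at 5 weeks (adjusted p = 0.137) and -1.05 ± 0.22 between 5 and 2 weeks (adjusted p = 0.138). In CPM this last difference was 31.9 ± 9.89 against 66.2 ± 6.94 (SD, n = 3 each).

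Xbp1 (gene ID 22433, mm10 chr11:5520641-5525993) encodes the transcription factor downstream of IRE1. It measured 235, 200 and 207 CPM in TAA, 276, 221 and 236 CPM at 2 weeks and 213, 205 and 224 CPM at 5 weeks. The groups overlapped. Xbp1 log2 changes were 0.19 ± 0.12 at 2 weeks (edgeR adjusted p = 0.356), which turned to -0.14 under scaling by library totals, and 0.00 ± 0.12 at 5 weeks (adjusted p = 0.994), and between 5 and 2 weeks -0.19 ± 0.12 (adjusted p = 0.342).

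Ddit3 (gene ID 13198, mm10 chr10:127290793-127296288) encodes CHOP, the transcription factor that links lasting ER stress to cell death. It measured 18.97, 20.8 and 31.4 CPM in TAA, 28.1, 28.6 and 23.5 CPM at 2 weeks and 7.42, 28.1 and 17.7 CPM at 5 weeks. In the 5-week group replicate 27 lay within the range of the 2-week libraries and replicate 23 was the lowest of all 9. Ddit3 log2 changes were 0.17 ± 0.39 and -0.42 ± 0.39 against TAA (edgeR adjusted p = 0.807 and 0.602), and -0.59 ± 0.39 between 5 and 2 weeks (adjusted p = 0.354). The 5-week value of Ddit3 was -0.07 without replicate 23, -0.17 without replicate 14 and -0.91 without replicate 27, and that between 5 and 2 weeks was -0.23 without replicate 23 and -1.09 without replicate 27. Its 2-week value turned to -0.18 with the trend over transcript length removed.

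**Figure D2:**
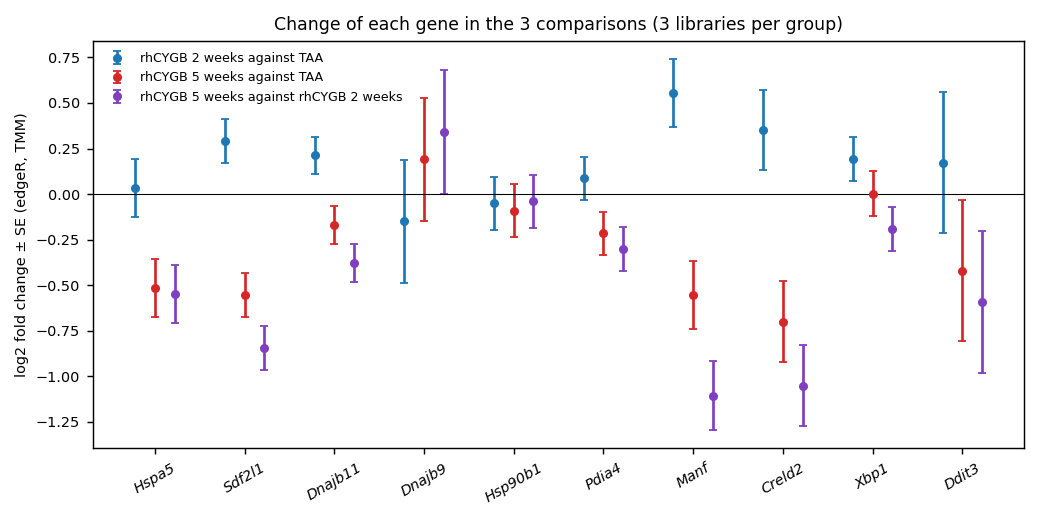
Log2 fold change of each of the 10 genes in the 3 comparisons, with bars for ± 1 SE from edgeR's quasi-likelihood fit. Sdf2l1, Manf and Creld2 lie furthest below 0 in the comparison of 5 with 2 weeks, at -0.85, -1.11 and -1.05, and none of the 10 passed an adjusted p of 0.05 in any comparison.

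Counted together, 0 of the 10 genes were called in rhCYGB 2 weeks against TAA, where 3.31% of all tested genes were called. At 5 weeks against TAA 0 of 10 were called (1.29% of all genes), and between 5 and 2 weeks 0 of 10 (0.0204% of all genes, 3 of 14731). At an unadjusted p under 0.05, edgeR counted 2, 4 and 6 of the 10 in these comparisons, against 23.4%, 19.2% and 23.2% of all genes. Libraries lay all higher at 2 weeks than in TAA for 3 of the 10 genes (17.3% of all genes). They lay all lower at 5 weeks than in TAA for 5 of the 10 (13.4%) and all lower at 5 than at 2 weeks for 6 of the 10 (10.2%), the sixth being Pdia4. Sdf2l1, Dnajb11 and Manf were both all higher at 2 weeks and all lower at 5 weeks, as were 56 of all 14731 genes (0.380%). The comparisons with TAA share their control libraries, so they are not independent of each other. The 10 genes were chosen with earlier results of these data known, so these counts and the medians that follow describe the list and do not test it. The median log2 change of the 10 genes was 0.18, -0.32 and -0.46 in the 3 comparisons in that order, beside -0.03, 0.01 and -0.01 over all genes tested.

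These counts depend on the tool and the scale. DESeq2, with adjusted p-values under 0.05, called Manf at 2 weeks against TAA (1 of 10 genes, 11.6% of all genes), Sdf2l1, Hspa5 and Creld2 at 5 weeks against TAA (3 of 10, 8.06% of all genes), and Sdf2l1, Hspa5, Dnajb11, Manf and Creld2 between 5 and 2 weeks (5 of 10, 5.35% of all genes). All 5 of the last were lower at 5 weeks, where DESeq2 called 2.02% of all genes lower. Scaling by library totals in place of TMM took the median log2 change of all genes from -0.03 to -0.36 at 2 weeks and from 0.01 to -0.21 at 5 weeks, and the median of the 10 genes to -0.15 and -0.54. On the deposited FPKM scale, which is not adjusted by TMM, the 2-week libraries lay all above TAA for Manf alone (4.60% of all genes) and all below TAA for Xbp1 (42.0% of all genes). On that scale the 5-week libraries were below TAA for 7 of the 10 genes, in which Pdia4 and Xbp1 joined the other 5, against 29.2% of all genes. Log2 changes followed transcript length across the 14731 genes, with a Spearman rho of -0.42 at 2 weeks against TAA, 0.05 at 5 weeks against TAA and 0.47 between 5 and 2 weeks, as a description across genes that are not independent replicates. Replicates 17, 18 and 23 stood furthest from the rest along the first principal component, which held 32.3% of the variance. Without these 3 libraries only replicate 19 remains at 2 weeks, and replicates 27 and 28 at 5 weeks. The medians of the 10 genes were then 0.23, -0.21 and -0.36.

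Across the 9 libraries, 6 of the genes had a correlation of 0.83 or more with the mean of the other 9. The share of all tested genes that reach this value was not counted. Pearson's r between the log2 CPM of a gene and the mean of the other 9, as a description over 9 libraries, was 0.90 for Creld2, 0.89 for both Sdf2l1 and Pdia4, 0.88 for Hspa5, 0.84 for Dnajb11 and 0.83 for Manf. It was 0.52 for Xbp1, 0.33 for Ddit3, 0.22 for Hsp90b1 and -0.09 for Dnajb9. The 9 libraries share their group structure and scaling, which these values include. Outside the list, genes averaging 5 CPM or more whose log2 CPM was most like the mean of all 10 were Rusc1 (r = 0.95), Isy1 (0.93), and Slc17a9, Hyou1, Mgme1, Fam220a, Galnt10 and Gtf2h3 (0.92 each), again over 9 libraries. Hyou1, an ER chaperone that exchanges the nucleotide of BiP, measured 170, 192 and 135 CPM in TAA, 183, 157 and 223 CPM at 2 weeks and 126, 98.0 and 130 CPM at 5 weeks. Its 5-week libraries were all below the others, with a log2 change between 5 and 2 weeks of -0.67 ± 0.18. The adjusted p of Hyou1 was 0.158 by edgeR and 0.0254 by DESeq2.

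The active form of Xbp1 differs from the full-length form by a 26-base segment that IRE1 removes from the messenger RNA. The deposited transcript table lists transcript variant 1 (2247 bases) and variant 2 (2221 bases), whose lengths differ by 26 bases. The segment was searched by its letters in an annotated Xbp1 transcript, as loop sequences CNGCNG with cut points 26 bases apart. Of 2 matches, the 1 in exon 4 was kept, since IRE1 cuts in that exon. It lies at chr11:5524279-5524304 (GRCm38, plus strand), within the coding part of exon 4 of 5. In the sequence below, capitals mark the 26 bases, with 12 bases on each side.
Xbp1 segment: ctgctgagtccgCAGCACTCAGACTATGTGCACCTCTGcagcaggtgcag
The share of Xbp1 reads given to variant 2, the shorter form, was 14.7%, 36.9% and 29.3% in TAA, 16.4%, 15.5% and 14.8% at 2 weeks and 18.8%, 22.3% and 17.2% at 5 weeks. TAA libraries ranged from the lowest to the highest share of all 9, while the rhCYGB libraries lay between these. Mean shares were 26.98% ± 11.3 in TAA, 15.6% ± 0.819 at 2 weeks and 19.4% ± 2.58 at 5 weeks (SD, n = 3 each). In exact two-sided permutation tests the difference from TAA was -11.4 percentage points at 2 weeks (p = 0.4) and -7.53 at 5 weeks (p = 0.4). Between 5 and 2 weeks the difference was 3.87 percentage points (exact permutation p = 0.1, the smallest that 3 against 3 allows). The shares rest on estimates that split reads between transcripts differing by 26 bases, so their precision is limited by the reads that cover the segment, whose number the table does not give.

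**Figure D3:**
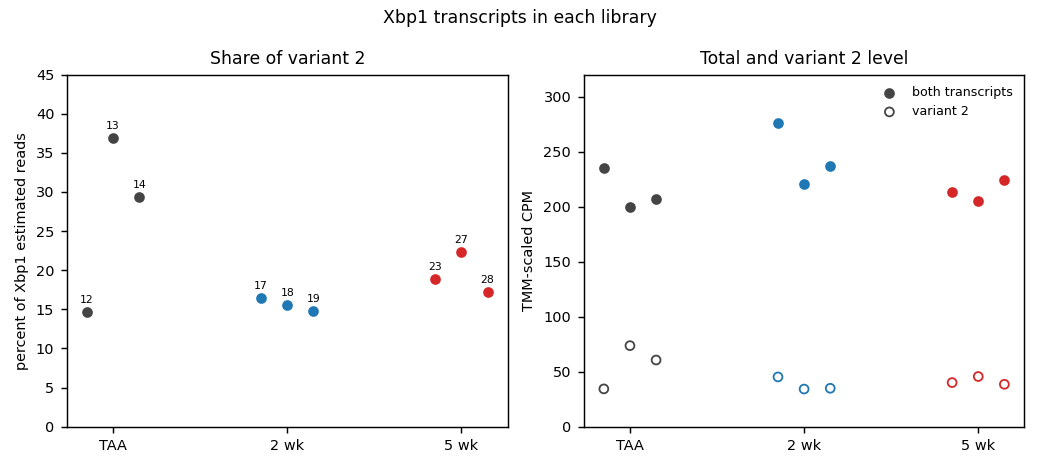
Left, the share of Xbp1 reads given to transcript variant 2, in percent, with 1 point for each of the 9 libraries, labelled by replicate. Right, the TMM-scaled CPM of both Xbp1 transcripts together (filled points) and of variant 2 (open points). TAA spans 14.7% to 36.9%, the 2-week group 14.8% to 16.4% and the 5-week group 17.2% to 22.3%.

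Genes around these 10 were followed in 7 further lists of the same biology. The 23 other ER chaperones and folding enzymes had 0 genes called by edgeR in each comparison, with median log2 changes of 0.05, -0.03 and -0.09. At an unadjusted p under 0.05 edgeR counted 7, 3 and 8 of the 23, and DESeq2 called 3, 0 and 2 of them. Of all tested genes, 23.4%, 19.2% and 23.2% reached that unadjusted p, and DESeq2 called 11.6%, 8.06% and 5.35%. By the edgeR adjusted p the shares were 3.31%, 1.29% and 0.0204%. The counts of each list below stand beside these same shares. Calr, the lectin chaperone calreticulin, spanned 818 to 1026 CPM in TAA, 862 to 1211 CPM at 2 weeks and 661 to 863 CPM at 5 weeks. Pdia3 and Pdia6, both disulfide isomerases, had 5-week log2 changes of -0.13 and -0.20 against TAA, and Dnajc3, an inhibitor of PERK, had 0.21, which was -0.02 on the log2(FPKM + 1) scale. Erp29 measured 70.7, 62.8 and 69.8 CPM in TAA, 75.7, 79.1 and 73.9 CPM at 2 weeks and 47.7, 60.6 and 55.0 CPM at 5 weeks. Its groups lay apart, and its log2 change between 5 and 2 weeks was -0.48 ± 0.12. The adjusted p of Erp29 was 0.143 by edgeR and 0.0118 by DESeq2. Canx, the membrane lectin chaperone calnexin, varied widely inside every group, with 82.3 CPM in replicate 14, 54.2 in replicate 18 and 74.5 in replicate 27 against 287 to 384 CPM in the other libraries.

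For ER-associated degradation, which returns misfolded proteins to the cytosol, 0 of 16 genes were called in any comparison, with medians of 0.13, 0.05 and -0.03 (edgeR, with 5, 2 and 4 at an unadjusted p under 0.05, and 3, 0 and 0 called by DESeq2). Herpud1, a scaffold of the degradation complex, measured 318, 245 and 141 CPM in TAA, 334, 355 and 361 CPM at 2 weeks and 357, 352 and 453 CPM at 5 weeks. All rhCYGB libraries were above all TAA libraries, with a log2 change of 0.72 ± 0.25 at 5 weeks (edgeR adjusted p = 0.159), the opposite sign to Hspa5. Derl3, a channel protein of the same route, rested on 0.881 to 1.63 CPM in TAA and 3.12 to 4.22 CPM at 2 weeks. Its log2 change was 1.55 ± 0.39 (edgeR adjusted p = 0.0576), which DESeq2 called (adjusted p = 0.00273). The 18 translocation and secretory targets of XBP1 had 0 genes called by edgeR (0, 2 and 5 at an unadjusted p under 0.05, and 0, 0 and 2 by DESeq2) and medians of 0.02, -0.07 and -0.01. Among them Srprb, a subunit of the receptor for the signal recognition particle, had -0.48 ± 0.12 between 5 and 2 weeks. Its adjusted p was 0.143 by edgeR and 0.0124 by DESeq2.

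Among 21 targets of the PERK and ATF4 branch, 2 rose at 2 weeks, 1 fell at 5 weeks, and 0 were called between 5 and 2 weeks (medians -0.10, -0.23 and -0.04). DESeq2 called 2 higher and 4 lower at 2 weeks, 3 lower at 5 weeks, and 2 lower between 5 and 2 weeks. Of all genes, edgeR called 3.31%, 1.29% and 0.0204%, and DESeq2 called 11.6%, 8.06% and 5.35%. Chac1, a glutathione-degrading enzyme, measured 1.24, 0.632 and 0.563 CPM in TAA and 2.50, 2.69 and 2.63 CPM at 2 weeks. It rose by 1.69 ± 0.36 on the log2 scale (edgeR adjusted p = 0.0392), a call that held in 10 of 19 alternative settings. The call of Chac1 was lost with each TAA or 2-week library left out in turn. Fgf21, a hormone secreted by the liver, measured 0.374, 0.514 and 0.659 CPM in TAA and 1.41, 1.80 and 0.986 CPM at 2 weeks. It rose by 1.43 ± 0.33 (edgeR adjusted p = 0.0497), a call that held in 7 of 19 settings. With 1 TAA or 2-week library left out, the call of Fgf21 held only without replicate 19. Both genes stood at low levels, at most 2.69 CPM in any of these libraries. Atf3, a stress-induced transcription factor of this branch, measured 9.91, 15.6 and 16.7 CPM in TAA, 9.73, 8.23 and 6.73 CPM at 2 weeks and 4.47, 5.78 and 7.11 CPM at 5 weeks. Atf3 changed by -1.28 ± 0.25 at 5 weeks (edgeR adjusted p = 0.0472), a call that held in 6 of 19 settings. That call was lost with each of the 9 libraries left out in turn. The lower 2-week level of Atf3 was not called by edgeR on the TMM scale. It was called by DESeq2 (log2 change -0.77, adjusted p = 0.0320) and on log2(FPKM + 1) (-0.92, limma adjusted p = 0.0285). Atf4 itself had log2 changes of -0.28 ± 0.12 and -0.05 ± 0.12 against TAA, and Trib3, another target, 0.27 ± 0.21 (-0.06 under scaling by library totals) and 0.50 ± 0.21. On the TMM scale the edgeR adjusted p was at least 0.195 for all 4 values. By library totals the 2-week value of Atf4 was -0.61 (edgeR adjusted p = 0.0292), and on log2(FPKM + 1) it was -0.60 (limma adjusted p = 0.0212).

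edgeR called 0 of the 13 sensors and regulators in each comparison (medians -0.05, 0.16 and 0.20), with 4, 2 and 3 at an unadjusted p under 0.05, while DESeq2 called 2, 1 and 2. Ern1, which encodes IRE1, measured 7.38, 11.1 and 7.07 CPM in TAA, 5.79, 5.04 and 7.61 CPM at 2 weeks and 19.5, 6.61 and 11.1 CPM at 5 weeks. Atf6 likewise had its highest value, 74.1 CPM, in replicate 23, against 35.9 to 45.6 CPM in the other 8 libraries. Replicate 23 was thus the highest library for both sensors while it was the lowest for Hspa5, Manf, Creld2 and Ddit3. Eif2ak3, which encodes PERK, stayed between 13.4 and 20.9 CPM in all 9 libraries. Atf6b, the relative of Atf6, measured 30.2, 26.4 and 30.2 CPM in TAA, 35.5, 34.7 and 34.4 CPM at 2 weeks and 21.1, 28.1 and 22.6 CPM at 5 weeks. Its log2 change between 5 and 2 weeks was -0.54 ± 0.13 (adjusted p = 0.142 by edgeR and 0.0137 by DESeq2). Creb3l3, a liver transcription factor of the ATF6 type, measured 272, 320 and 330 CPM in TAA, 567, 491 and 351 CPM at 2 weeks and 376, 435 and 390 CPM at 5 weeks. All 6 rhCYGB libraries were above TAA, with log2 changes of 0.61 ± 0.17 (edgeR adjusted p = 0.0781) and 0.38 ± 0.17 (adjusted p = 0.265). DESeq2 called the 2-week change of Creb3l3 (adjusted p = 0.0183).

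Chaperones of other compartments were set beside those of the ER. The 17 cytosolic heat shock chaperones had 0 genes called by edgeR, with medians of 0.32, 0.00 and -0.36. At an unadjusted p under 0.05 there were 7, 1 and 7. DESeq2 called 4, which rose, at 2 weeks, 0 at 5 weeks against TAA, and 4, which fell, between 5 and 2 weeks. Of all genes, 23.4%, 19.2% and 23.2% reached that unadjusted p, and DESeq2 called 11.6%, 8.06% and 5.35%. In the cytosolic list Stip1, a co-chaperone that joins HSP70 to HSP90, had 0.44 ± 0.13 at 2 weeks (edgeR adjusted p = 0.0807). Its change between 5 and 2 weeks was -0.59 ± 0.13 (edgeR adjusted p = 0.138). DESeq2 called both changes of Stip1 (adjusted p = 0.0142 and 0.00242). Of 10 mitochondrial chaperones and proteases, 1 rose at 2 weeks and 0 were called in the other comparisons (medians 0.25, 0.20 and -0.06), while DESeq2 called 3, 1 and 0. That gene was Trap1, the mitochondrial HSP90, which measured 137, 147 and 141 CPM in TAA, 195, 196 and 193 CPM at 2 weeks and 196, 182 and 183 CPM at 5 weeks. Trap1 rose by 0.46 ± 0.10 at 2 weeks (edgeR adjusted p = 0.0392), a call that held in 6 of 19 settings. This call was lost with each TAA or 2-week library left out in turn. Its change at 5 weeks was 0.40 ± 0.10 (edgeR adjusted p = 0.0723), which DESeq2 called (adjusted p = 0.000683). Scaling by library totals left 0.13 of the 2-week value.

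**Figure D4:**
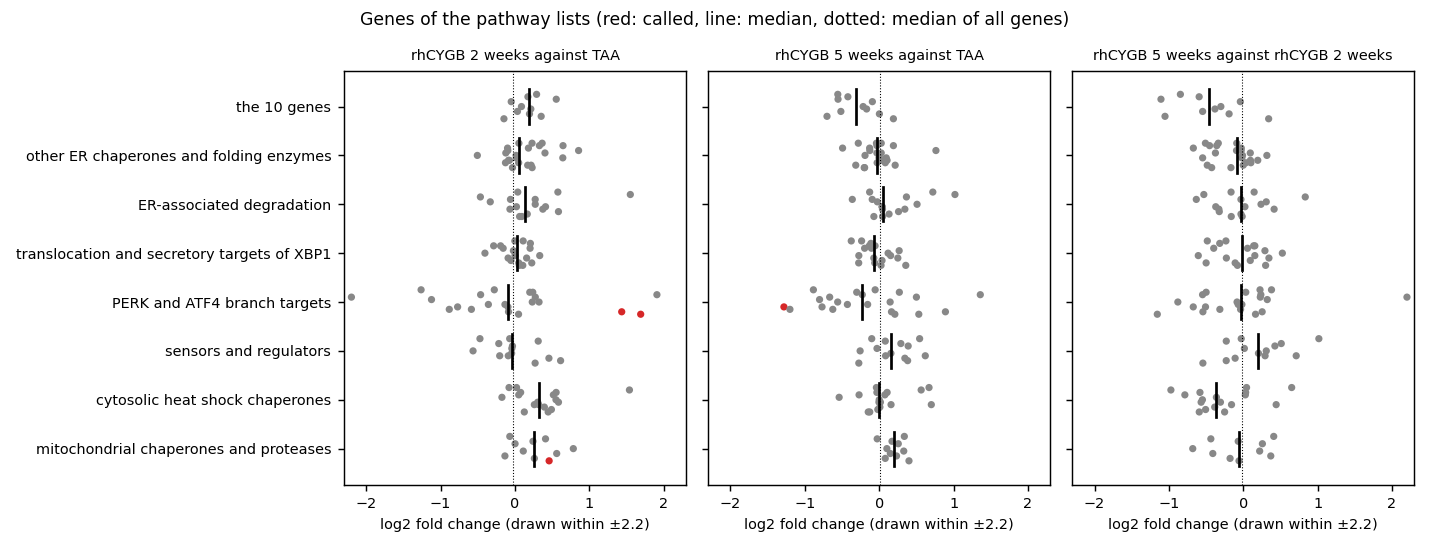
Log2 fold change of each gene in the 10 genes and the 7 further lists, in each of the 3 comparisons, with red points for genes called at an edgeR adjusted p under 0.05, a black line for the median of each list and a dotted line for the median of all tested genes. At 2 weeks 8 of the 10 genes lie above 0 (median 0.18 on the TMM scale, -0.15 by library totals). In the other panels 8 and 9 of the 10 lie below 0 (medians -0.32 and -0.46), and 3 red points at 2 weeks and 1 at 5 weeks mark Chac1, Fgf21, Trap1 and Atf3.

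Whole liver mixes cell types, and in bulk samples fewer cells of a type and less RNA per cell cannot be told apart. Hepatocyte markers (8 of 8 tested) summed to 100182 to 114357 CPM in TAA, 110151 to 150433 CPM at 2 weeks and 109083 to 148784 CPM at 5 weeks, so the labelled tissue showed its defining genes in every library. Stellate cell and fibroblast markers (8 of 8 tested) summed to 1076 to 1604 CPM in TAA, 524 to 832 CPM at 2 weeks and 365 to 751 CPM at 5 weeks. Cholangiocyte markers spanned 332 to 541, 273 to 380 and 111 to 370 CPM in these groups, which overlapped. Their lowest sum was in replicate 23, against 329 CPM in replicate 27 and 370 CPM in replicate 28. Proliferation markers spanned 156 to 176, 75.0 to 112 and 97.4 to 98.8 CPM. Macrophage markers (336 to 401, 349 to 499 and 317 to 370 CPM) and endothelial markers (99.2 to 109, 98.5 to 121 and 86.0 to 107 CPM) overlapped between groups. Plasma cells and pancreatic acinar cells, both rich in ER chaperones, were looked for by their own genes. Plasma cell markers (5 of 7 tested) stood at 5.36 to 9.46, 5.35 to 7.81 and 6.53 to 7.98 CPM, and acinar markers (2 of 8 tested) at 7.93 to 10.5, 10.9 to 15.1 and 7.95 to 12.5 CPM, with Prss2, Cpa1, Cpb1, Pnlip and Amy2a5 at 0 in all 9 libraries. The part of the stellate, cholangiocyte and proliferation markers in the levels of the 10 genes was not tested. Library totals ran from 55655727 to 87289945 estimated reads, and the lowest count of any of the 10 genes in a library was 481 (Ddit3, replicate 23).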

How the data were processed

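RNA of 9 mouse liver samples was sequenced as poly(A)-selected, strand-marked paired-end libraries, per the labels' protocols. Build mm10 and the tools HISAT2 2.1.0, StringTie 1.3.4d and FastQC 0.11.7 are named in the submitters' processing notes. The deposited gene values are estimated counts, whole numbers as deposited by the authors, and FPKM, per the file headers. The step from StringTie to counts and its use of strand are not given in the sources used here, so overlapping and antisense genes cannot be told apart. Genes were filtered by edgeR's filterByExpr (minimum count 10, total 15), scaled by TMM and tested in 1 fit of 3 groups with edgeR 4.0.16 (R 4.3.3) and Benjamini-Hochberg adjustment over 14731 genes. SE is the size of the log2 change divided by the square root of F. Alternatives used limma 3.58.1 on log2(FPKM + 1) and log2(FPKM + 0.1), DESeq2 1.42.0, other scalings, no filter, fits of only the groups compared, a transcript length trend removed, and libraries left out. The edgeR fit, with and without the length trend, and DESeq2 were tried on simulated counts. limma was tried there on log2(CPM + 1) and not on FPKM. Motifs were searched in RefSeq promoters, and the Xbp1 segment in GENCODE transcripts, both on GRCm38. For 8 of the 10 genes the deposited mm10 locus equals that of RefSeq. The 10 genes and all lists were chosen with earlier results of these data known. Named beyond the 10 were called genes of each list (up to 4 per comparison, otherwise that of lowest p), 14 set genes and the 8 genes most like the 10.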

Additional observations from a re-analysis of the deposited data

Results flagged for a closer look

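Sdf2l1, Dnajb11 and Manf each had every 2-week library above, and every 5-week library below, all TAA libraries, so that the shorter and the longer rhCYGB course lay on opposite sides of the shared control. The same held for 56 of all 14731 genes tested (0.380%), and the 10 genes were chosen with earlier results of these data known. The log2 difference between 5 and 2 weeks was -0.85 for Sdf2l1, -0.38 for Dnajb11 and -1.11 for Manf. edgeR's quasi-likelihood test of that difference did not call any of them (adjusted p = 0.0645, 0.159 and 0.109), while DESeq2 called all 3 (adjusted p = 4.18e-07, 0.0198 and 2.71e-05). In that comparison DESeq2 called 5.35% of all genes, and 2.02% of all genes as lower. For Sdf2l1 and Dnajb11 the 2-week libraries overlapped with TAA on the FPKM scale. Manf kept its place above TAA there, with a 2-week log2 change of 0.21 on log2(FPKM + 1) against 0.55 on the TMM scale. With the trend over transcript length removed, the 2-week changes of Sdf2l1, Dnajb11 and Manf were 0.00054, 0.13 and 0.51.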

How the results depend on the processing

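No paired analysis was possible because the 3 groups share no replicate number. Across 19 alternative settings, 497 of 570 log2 changes of the 10 genes kept their sign and side of the threshold, 25 newly passed it and 48 turned sign, of which 38 had started within 1 SE of 0 without a call. For the other named genes 1087 of 1254 kept both, 40 newly passed, 47 no longer passed and 80 turned sign, 54 of them from within 1 SE of 0. The cause was not tested.

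At 2 weeks against TAA, edgeR called 488 genes, of which 59.6% rose (45.1% by upper quartile scaling, 6.39% by library totals). The count was 1722 by library totals, 1713 by DESeq2, 1983 by limma on log2(FPKM + 1) and 1639 on log2(FPKM + 0.1). It was 1023 with only the groups compared and ran from 1 to 1095 with 1 library left out, lowest without replicate 13. Leaving out the 3 libraries of replicates 17, 18 and 23 together was a setting chosen after seeing the data. That setting leaves replicate 19 alone at 2 weeks, so no count is given for it. At 5 weeks 190 genes were called, of which 53.2% rose (41.6% by upper quartile, 7.54% by library totals). That count was 77 by upper quartile, 504 by library totals, 1188 by DESeq2, 105 with no filter, and 1001 and 693 on the FPKM scales. It was 1 with only the groups compared, 590 with the length trend removed, and 0 to 240 with 1 left out. Without replicates 12, 13, 14, 17, 18, 19, 23 or 28 in turn it was at most 5, and 240 without 27. Between 5 and 2 weeks 3 genes were called, 788 by DESeq2, 5 on log2(FPKM + 1) and 0 with only the groups compared. The count was 7 with the length trend removed, and 1 to 1889 with 1 left out, highest without replicate 27.

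Of the 10 genes, DESeq2 called Manf alone at 2 weeks, as did the fit of only the groups compared. All genes called there numbered 1713 of 14731 and 1023 of 14526. With 1 library left out the count was 0 to 1, Manf without replicate 23, where 1095 of 14953 genes were called. At 5 weeks the counts were 1 by upper quartile, 2 by library totals, 3 by DESeq2, and 5 and 3 on the FPKM scales. All genes called there numbered 77, 504, 1188, 1001 and 693 of 14731. Between 5 and 2 weeks the counts were 5 by DESeq2 (788 of 14731 genes) and 0 to 3 with 1 left out. The 3 were Sdf2l1, Manf and Creld2 without replicate 27, where 1889 of 14979 genes were called. The median of the 10 genes at 2 weeks was -0.15 by library totals, -0.14 on both FPKM scales and 0.068 with the length trend removed. It ran from 0.11 (without replicate 13) to 0.22 (without replicate 19) with 1 library left out. At 5 weeks it was -0.54 by library totals, -0.58 and -0.59 on the FPKM scales and -0.21 without the 3 libraries. Between 5 and 2 weeks it was -0.35 by library totals and on both FPKM scales, -0.30 with the length trend removed, -0.36 without the 3 libraries, and -0.48 to -0.35 with 1 left out.

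Among changes that exceeded their SE, signs that turned at 2 weeks, by library totals, log2(FPKM + 1) and log2(FPKM + 0.1) in that order, were Sdf2l1 (-0.043, -0.040, -0.041), Dnajb11 (-0.12, -0.12, -0.12), Xbp1 (-0.14, -0.14, -0.15), Trib3 (-0.063, -0.078, -0.11), Calr (-0.11, -0.12, -0.12), Dnajc3 (-0.12, -0.12, -0.12), Erp29 (-0.16, -0.16, -0.16) and Atf6b (-0.060, -0.058, -0.062). Dnajc3 at 5 weeks was -0.0049, -0.020 and -0.020. Among changes within their SE, the same settings gave, among others, Hspa5 -0.29, -0.31 and -0.31, Pdia4 -0.24, -0.24 and -0.24, and Ddit3 -0.16, -0.13 and -0.13 at 2 weeks, and Xbp1 -0.21, -0.22 and -0.22 at 5 weeks. With the length trend removed Erp29 was -0.073 at 2 weeks. With 1 library left out Trib3 ran from -0.018 (without replicate 18) to 0.45 (without replicate 19). Without replicates 17, 18 and 23, Trib3 was -0.17, Eif2ak3 0.014 and Calr -0.10 at 2 weeks, and between 5 and 2 weeks Dnajb9 was -0.16, Atf6 -0.075, Eif2ak3 -0.016 and Creb3l3 0.23. The Xbp1 share differences with 1 library left out ran from -17.6 to -6.43, -13.7 to -2.56 and 2.46 to 4.98 percentage points. With 1 library left out a group of 2 remains, and without replicates 17, 18 and 23 the 2-week group is replicate 19 alone.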
